A study of Mus musculus with 5 samples.

Results

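The genes described here are 38 cell cycle and DNA replication genes of the mouse, a list that joins the replication machinery, the cyclins and kinases that run the cycle, the E2F and RB family and regulators of mitosis. They were taken by name from 21883 protein-coding genes, and each is described by the open chromatin at its gene ends, meaning the peaks that overlap 1 kb on either side of an annotated end of the gene. By role, 14 of the 38 serve replication, 8 are G1 and S phase cyclins and kinases, 5 belong to the E2F and RB family and 11 serve mitosis. In all 5 libraries 34 of the 38 showed a gene-end peak, against 44.2% of all protein-coding genes, and these 34 could be compared between genotypes.

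Bulk ATAC-seq, in which a transposase cuts open DNA and leaves sequencing adapters there, was run on haematopoietic stem and progenitor cells (HSPC) from mouse bone marrow, which the series describes as lineage depleted. The mice called Smc3-het here carried Mx1-Cre and the inv(16) allele, were heterozygous for Smc3 (Smc3 D/+) and gave 2 libraries. Their controls, called Smc3-wt here, carried Mx1-Cre, the inv(16) allele and both Smc3 alleles (Smc3 +/+) and gave 3 libraries. All 5 libraries therefore share Mx1-Cre, inv(16) and PIPC treatment, and no library without inv(16) was part of the comparison. PIPC, a double-stranded RNA mimic, evokes interferon and thereby turns on Mx1-Cre, a recombinase under an interferon-inducible promoter that is active in many cell types besides blood cells. Smc3 encodes a subunit of cohesin, and inv(16) is named for a human leukaemic inversion that fuses CBFB to MYH11. The labels do not say how the mouse allele was made. Peak lists do not show whether Smc3 was deleted, so the genotypes rest on the labels. No age is labelled, and whether different mice gave the libraries is not stated, so p-values here reflect the scatter among libraries, which may be technical.

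In resting cells the E2F factors are held by RB proteins at the promoters of genes for S phase. Cyclin D with CDK4 or CDK6, and then cyclin E with CDK2, phosphorylate RB and release E2F, after which the genes for origin licensing and DNA synthesis are transcribed. Genes for mitosis are switched on later, through the MuvB complex, which reads a short element called CHR, together with NF-Y, which reads CCAAT. These promoters are commonly open in cycling progenitors.

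The promoter sequences of the replication and mitosis genes differed in their matches to E2F and CHR elements, while CCAAT was common in both. Of these promoters, 6 are printed because the results below turn on their genes or because they carry the elements most clearly. They are the 300 bases from 250 before to 50 after the start site, from RefSeq in build GRCm38.p6, written 5′ to 3′ on the strand of the gene. Capitals mark the E2F-type words TTTCGCGC, TTTGGCGC, TTTCCCGC and TTTGCCGC, the CHR word TTTGAA and the word CCAAT, each searched on both strands, so that ATTGG is CCAAT and GCGGGAAA is TTTCCCGC on the other strand. Rfc3 lies at chr5:151651159-151651458 on the minus strand, Mcm5 at chr8:75109259-75109558 on the plus strand and Mcm6 at chr1:128359656-128359955 on the minus strand. Cdk1 lies at chr10:69352863-69353162, Aurka at chr2:172370521-172370820 and Ccnb2 at chr9:70421505-70421804, all on the minus strand.
Rfc3: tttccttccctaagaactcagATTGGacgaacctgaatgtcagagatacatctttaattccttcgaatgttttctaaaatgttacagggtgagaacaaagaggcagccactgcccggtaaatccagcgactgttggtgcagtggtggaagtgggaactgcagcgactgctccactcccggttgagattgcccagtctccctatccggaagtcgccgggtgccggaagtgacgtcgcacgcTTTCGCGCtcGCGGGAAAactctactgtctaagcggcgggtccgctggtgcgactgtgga
Mcm5: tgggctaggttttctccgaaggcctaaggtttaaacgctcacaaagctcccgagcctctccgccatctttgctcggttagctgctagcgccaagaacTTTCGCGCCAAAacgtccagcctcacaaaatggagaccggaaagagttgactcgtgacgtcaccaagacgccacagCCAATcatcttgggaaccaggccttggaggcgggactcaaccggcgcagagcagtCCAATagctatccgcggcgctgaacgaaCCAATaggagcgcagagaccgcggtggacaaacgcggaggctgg
Mcm6: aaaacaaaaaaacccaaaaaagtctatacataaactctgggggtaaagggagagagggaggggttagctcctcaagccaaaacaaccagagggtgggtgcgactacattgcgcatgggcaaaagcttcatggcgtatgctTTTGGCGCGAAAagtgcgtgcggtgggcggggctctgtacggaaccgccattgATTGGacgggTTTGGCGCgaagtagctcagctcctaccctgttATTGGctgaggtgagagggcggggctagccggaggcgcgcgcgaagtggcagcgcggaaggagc
Cdk1: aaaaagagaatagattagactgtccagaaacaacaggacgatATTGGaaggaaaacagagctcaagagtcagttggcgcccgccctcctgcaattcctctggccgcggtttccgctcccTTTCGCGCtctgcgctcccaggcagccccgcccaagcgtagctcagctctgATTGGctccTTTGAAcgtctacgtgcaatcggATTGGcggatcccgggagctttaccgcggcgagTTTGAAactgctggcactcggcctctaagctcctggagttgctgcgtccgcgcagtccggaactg
Aurka: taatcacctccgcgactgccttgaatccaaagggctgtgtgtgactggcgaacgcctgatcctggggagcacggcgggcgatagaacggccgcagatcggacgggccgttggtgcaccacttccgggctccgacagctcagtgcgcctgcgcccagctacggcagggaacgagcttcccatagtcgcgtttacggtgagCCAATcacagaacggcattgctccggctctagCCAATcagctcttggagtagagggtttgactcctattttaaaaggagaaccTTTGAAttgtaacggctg
Ccnb2: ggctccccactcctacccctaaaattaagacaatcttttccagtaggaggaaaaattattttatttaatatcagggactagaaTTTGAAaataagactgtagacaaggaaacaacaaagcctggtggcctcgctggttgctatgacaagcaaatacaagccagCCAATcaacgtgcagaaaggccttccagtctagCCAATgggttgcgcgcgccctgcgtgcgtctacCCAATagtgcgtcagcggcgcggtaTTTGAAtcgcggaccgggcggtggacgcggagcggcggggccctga

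Counting the start base as 0, the Rfc3 promoter held TTTCGCGC from base -10 to base -3 and TTTCCCGC on the other strand from base 0 to base 7. The first of these E2F-type words thus ends just before the start, and the second covers the start base. Mcm5 and Mcm6, subunits of the replicative helicase, each held a pair of E2F-type words on opposite strands that overlap, from -153 to -142 in Mcm5 and from -110 to -99 in Mcm6. Ccnb2, a mitotic cyclin, had no E2F-type word but held TTTGAA from base 4 to base 9 and CCAAT at -87, -54 and -21. Cdk1, the mitotic kinase, held all 3 kinds, with TTTCGCGC at -131 and TTTGAA at -71 and -15.

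The promoter table gave a sequence for 31 of the 38 genes, and not for Mcm4, Ccnd1, Ccnd2, Ccne2, Rb1, Ccna2 and Aurkb. An E2F-type word was found in 14 of the 31 genes (45.2%), against 3.29% of 17491 protein-coding genes and 5.17% of the 7911 genes that had both a promoter sequence and gene-end peaks in all 5 libraries. By role the count was 9 of 13 replication genes, 1 of 5 G1 and S phase genes, 3 of 4 E2F and RB family genes and 1 of 9 mitosis genes. The CHR word was held by 7 of 9 mitosis genes and by 1 of 13 replication genes, against 18.5% of all protein-coding genes. Of the E2F and RB family genes 2 of 4 held it, and of the G1 and S phase genes 0 of 5. All 9 mitosis promoters held CCAAT and 7 of the 9 held both words, a combination present in 8.37% of all promoters. CCAAT was also in 11 of 13 replication promoters, against 42.3% of all. The promoters held a median of 25 CpG per 300 bases, against 15 in all protein-coding genes and 23 in the 7911. A word match describes the letters of the window and does not show that a factor bound there.

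**Figure D1:**
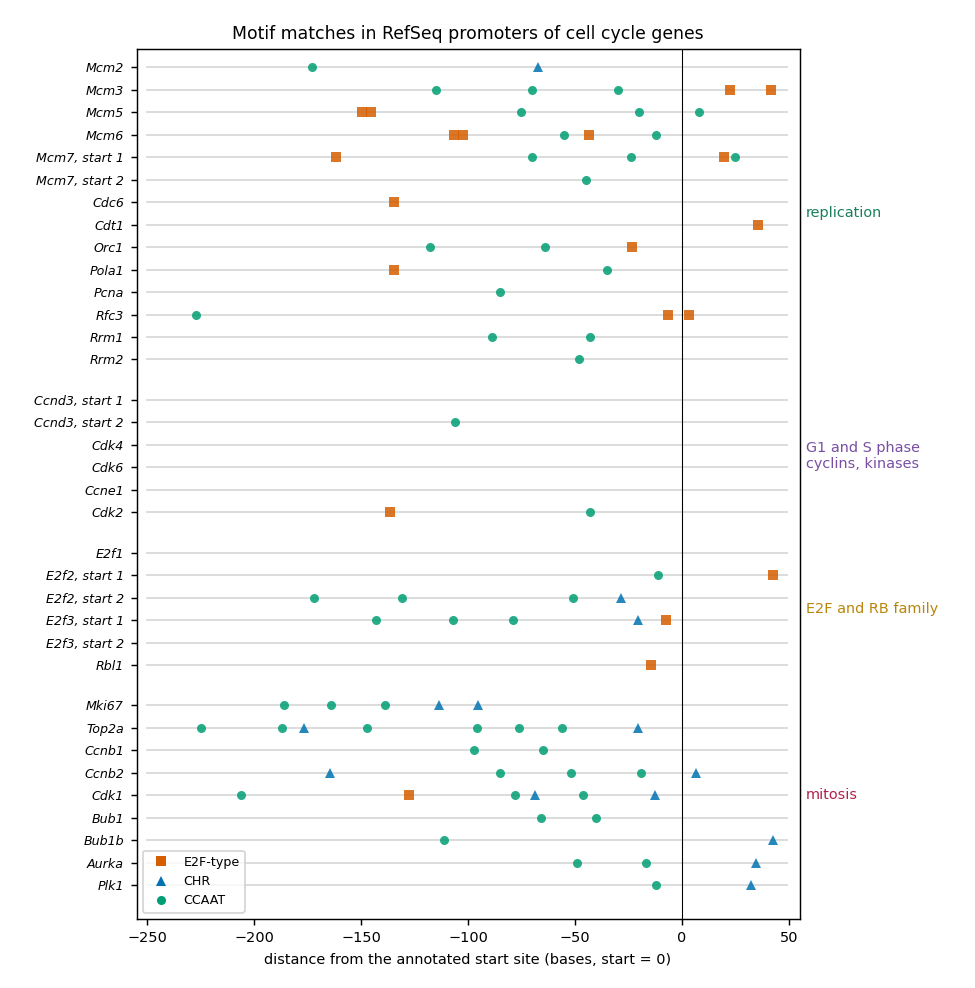
Positions of E2F-type (orange squares), CHR (blue triangles) and CCAAT (green circles) words in the 300-base promoters of 31 cell cycle genes, grouped by role. The x axis is the distance from the annotated start site in bases. Squares gather in the replication rows, where 9 of 13 genes hold one, and triangles in the mitosis rows, where 7 of 9 genes hold one.

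For each gene and library the height used here is the fragment pileup at the strongest gene-end summit divided by the commonest background pileup of that library's list, so that a height of 10 is a summit 10 times over background. The lists held 26885 and 36467 peaks in the Smc3-het libraries 1 and 2, against 65880, 102822 and 121224 in the Smc3-wt libraries 1, 2 and 3. The background was 3.59 and 2.92 fragments in Smc3-het, against 2.74, 1.93 and 3.02 fragments in Smc3-wt. Over the 9664 genes that had gene-end peaks in all 5 libraries, the median height was 13.1 and 16.4 in the Smc3-het libraries, against 28.6, 30.1 and 38.7 in the Smc3-wt libraries. It averaged 14.8 ± 2.36 in Smc3-het (SD, n = 2) and 32.5 ± 5.43 in Smc3-wt (SD, n = 3), a 2.201-fold higher value in Smc3-wt. The two-sided exact permutation p was 0.2. That is the smallest that this test, which doubles the p of a single direction, can give for 2 against 3 libraries. Marker genes of HSPC had a gene-end peak for 5 and 4 of 6 genes in Smc3-het and for 5, 6 and 6 of 6 in Smc3-wt, and 3 of the 6 had one in all 5 libraries. Erythroid markers had one for 2 and 3 of 4 genes in Smc3-het and for 4 of 4 in each Smc3-wt library, B cell markers for 1 and 2 of 4 in Smc3-het, against 1, 3 and 3 in Smc3-wt, and neutrophil and monocyte markers for 1 and 2 of 6 in Smc3-het, against 4, 2 and 3 in Smc3-wt. T cell markers had at most 2 of 4, with Cd3e and Cd3g at none, and Elane and Ly6g, of neutrophils, also had none. The summed marker heights ran from 38.7 to 44.5 in Smc3-het and from 60.5 to 95.9 in Smc3-wt for HSPC, and from 22.5 to 31.5 in Smc3-het and from 88.2 to 114 in Smc3-wt for erythroid cells. A marker without a peak added 0 to its sum, so the sums cannot be set against the median height, taken over genes with a peak in every list. The sums ran from 7.24 to 10.6 in Smc3-het and from 9.11 to 27.1 in Smc3-wt for B cells, from 0 to 4.73 in Smc3-het and from 0 to 9.59 in Smc3-wt for T cells, and from 4.73 to 8.90 in Smc3-het and from 13.0 to 20.8 in Smc3-wt for neutrophils and monocytes. The part of these cells in the results was not tested. In bulk tissue, fewer cells of a type and less open chromatin per cell cannot be told apart.

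Because this difference runs through whole lists, genotypes were compared by relative height, the log2 height minus the median log2 height of the 9664 genes in the same library. A relative height of 0 is thus the typical gene of that library. Each gene was tested with limma over all 9664 genes as Smc3-het minus Smc3-wt, with Benjamini-Hochberg adjustment and a threshold of 0.05. Before centring, heights were lower in Smc3-het with no overlap between genotypes at 33 of the 34 genes, against 87.3% of all 9664. The median log2 difference was -1.23 for the 34 genes, against -1.14 for all 9664. Every direction given below is therefore relative to that shift.

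The cell cycle genes as a whole were open in nearly all libraries. A gene-end peak was present for 34 and 35 of the 38 genes in the Smc3-het libraries and for 36, 34 and 34 in the Smc3-wt libraries. The share with gene-end peaks in all 5 libraries was 89.5% of the 38 genes, against 44.2% of all protein-coding genes. Their median height followed the library, at 12.1 and 16.1 in Smc3-het, against 33.3, 30.4 and 43.3 in Smc3-wt. The median relative height was -0.11 and -0.03 in Smc3-het, against 0.22, 0.01 and 0.16 in Smc3-wt. Cell cycle genes were thus about as high as the typical open gene end, and 10 of the 34 lay above and 10 below the library median in all 5 libraries. The highest was 5.08 and 6.57 times the lowest in the Smc3-het libraries, against 15.6, 7.67 and 10.5 times the lowest in the Smc3-wt libraries.

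**Figure D2:**
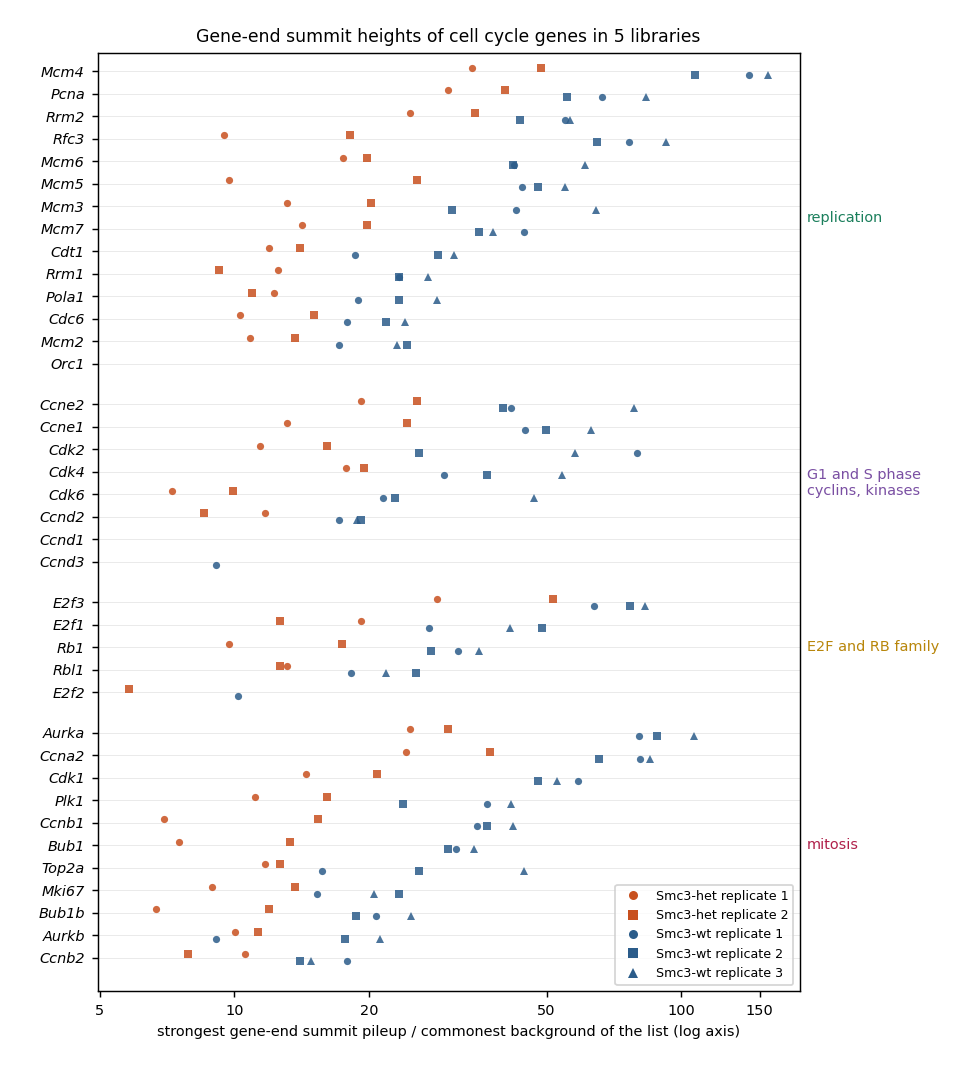
Height at the gene ends of the 38 genes, grouped by role, with 1 point per library (orange Smc3-het, blue Smc3-wt). The log x axis gives the strongest gene-end summit pileup over the commonest background of the list. Heights run from 5.82 for E2f2 to 156 for Mcm4, the Smc3-het points lie left of the Smc3-wt points for nearly every gene, and Orc1 and Ccnd1 have no point.

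The signal sat mostly at the promoters in genes with a start site in the promoter table. Of 28 genes with a start site in the promoter table and a peak in every library, 27 had their strongest summit at the end that holds the start site in all 5 libraries. The median distance from summit to start site was 125.5 bp over 140 values, of which 133 were at most 500 bp. The exception was Cdk2 in Smc3-wt replicate 1, whose strongest summit was 8634 bp from its start, beyond the other end of the gene and close to the end of the neighbouring gene Rab5b.

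Mean relative height was lower in Smc3-het for 20 genes and higher for 14. That is 58.8% lower, against 50.2% of all genes tested, and the median log2 difference was -0.10, against -0.0017 for all genes tested. A single gene passed the test, Rfc3, which was lower. That is 1 of 34 (2.94%), while the same test called 0.321% of all genes tested, of which 0.114% lower and 0.207% higher. At an unadjusted p under 0.05 the count was 7 of 34 (20.6%), against 22.9% of all genes. The libraries of the genotypes did not overlap at 9 genes that were lower in Smc3-het (26.5%, against 22.5% of all genes tested) and at 3 that were higher (8.82%, against 19.0%). After quantile normalization, which gives every library the same distribution of heights, these became 6 lower and 4 higher, against 18.4% and 18.5% of all genes tested, and 7 genes kept their side in both scalings. On MACS2's local background under each peak they were 4 lower and 5 higher, against 9.64% and 15.4% of all genes tested, so the balance of the directions turned on the scale. In relative height, the shares at the unadjusted threshold and of lower genes without overlap were thus close to those of all genes tested, and that of higher genes was below it.

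The size of a difference depended on height across the whole data set. When the 9664 genes were split into 10 equal bins by mean relative height, the median difference was 0.51 in the lowest bin and -0.42 in the highest. Heights thus spanned a narrower range in Smc3-het. The SD of relative height over all genes was 0.68 and 0.77 in Smc3-het, against 0.97, 0.92 and 0.96 in Smc3-wt. After quantile normalization the medians were 0.12 in the lowest bin and -0.11 in the highest. Of the 34 cell cycle genes, 8 (23.5%) lay below the lower quartile of their own bin and 5 (14.7%) above the upper quartile. Neither share exceeds what a quartile cuts off from all genes by definition. The 8 were Rfc3, Mcm5, Cdk6, Cdk2, Ccnb1, Cdk1, Bub1 and Bub1b, and the 5 were Pcna, Rrm2, E2f3, Rbl1 and Aurkb. For Cdk6 and Cdk2 the peak compared was not the same in every library, as described below.

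**Figure D3:**
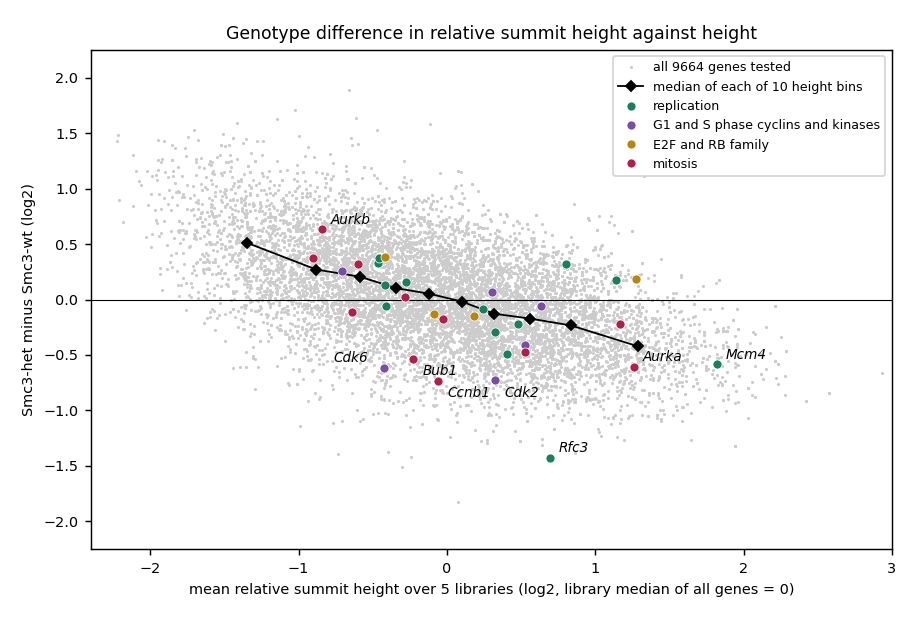
Log2 difference in relative height, Smc3-het minus Smc3-wt, against mean relative height over the 5 libraries, for all 9664 genes tested (grey) and the 34 cell cycle genes coloured by role. Black diamonds give the median of each of 10 height bins of all genes and run from 0.51 to -0.42. Rfc3, at -1.42, stands below the cell cycle genes, whose next lowest is -0.74.

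Rfc3 encodes a subunit of replication factor C, the clamp loader that opens the PCNA ring and closes it around primed DNA. The gene lies on chromosome 5 from 151642817 to 151651208. Its summit at the start site was 9.47 and 18.1 times over background in Smc3-het, against 76.5, 64.9 and 92.6 times in Smc3-wt. Both Smc3-het heights were below all 3 Smc3-wt heights, and the gap was wider than for the typical gene. The summit pileups behind these heights were 34 and 53 fragments in Smc3-het, against 210, 125 and 280 fragments in Smc3-wt. Height averaged 13.8 ± 6.13 in Smc3-het (SD, n = 2) and 78.0 ± 13.9 in Smc3-wt (SD, n = 3).

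In relative height, Rfc3 stood at -0.47 and 0.14 in Smc3-het and at 1.42, 1.11 and 1.26 in Smc3-wt. It was therefore an ordinary gene end in Smc3-het, at the 25.04th and 57.5th percentile of all genes tested, and among the strong ones in Smc3-wt, at the 93.7th, 88.5th and 91.7th. Relative height was lower in Smc3-het by a log2 difference of -1.42 (SE 0.25), which is 0.373 times the Smc3-wt value, with a limma adjusted p of 0.0453. Only 2 of the 9664 genes had a lower difference. The call was not firm: over 18 alternative settings the difference was negative in all 18, from -2.56 to -0.55, and the adjusted p ran from 4.64e-10 to 0.564 and passed in 8. With 1 library left out at a time, limma still called Rfc3 only without Smc3-wt replicate 2 (adjusted p = 0.0456), and without Smc3-het replicate 1 the difference was -1.13 with an adjusted p of 0.457. After quantile normalization it was -1.36 with an adjusted p of 0.107.

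The Rfc3 peak stayed at the same place in both genotypes. Its summit lay 97 bp inside and 49 bp outside the start in Smc3-het, against 43, 20 and 46 bp inside it in Smc3-wt, close to the E2F-type words printed above. The peak was 752 and 1001 bp wide in Smc3-het, against 955, 1078 and 1137 bp wide in Smc3-wt. MACS2's own local background under the peak was 5.36 and 5.85 fragments in Smc3-het, against 12.7, 8.47 and 18.5 in Smc3-wt. On that local scale, where a high peak can raise its own background, the log2 difference was -0.55 with a limma adjusted p of 0.564. Within 300 kb on each side of the gene the lists held 2 and 6 peaks in Smc3-het, against 16, 26 and 33 in Smc3-wt, which is 7.44 and 16.5 per 100000 peaks of the list in Smc3-het, against 24.3, 25.3 and 27.2 in Smc3-wt.

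Among the other replication genes, the 6 subunits of the MCM2-7 helicase, which is loaded at origins and unwinds DNA, differed widely from each other in height. Mcm4 had the highest mean height over the 5 libraries of the 34 genes, although E2f3 exceeded it in Smc3-het replicate 2, and stood at 34.0 and 48.6 in Smc3-het, against 142, 107 and 156 in Smc3-wt. Its end lies 44 bp from the end of Prkdc, a DNA repair kinase gene, so that the summit lies beside both genes. The genotypes did not overlap, and the log2 difference in relative height was -0.58 (SE 0.24, adjusted p = 0.180). That value lies within the quartiles of the highest bin of genes, -0.62 to -0.18, and it was 0.17 on MACS2's local background. Mcm6 stood at 17.5 and 19.8 in Smc3-het and at 42.3, 42.1 and 60.8 in Smc3-wt, lower without overlap in relative height, with a difference of -0.22 (adjusted p = 0.575), and -0.09 after quantile normalization. Mcm2 was the lowest of the subunits in every library but Smc3-het replicate 1, where Mcm5 was lower, and stood at 10.9 and 13.7 in Smc3-het, against 17.1, 24.4 and 23.1 in Smc3-wt. Its relative height was on the higher side in Smc3-het, with a difference of 0.33 (SE 0.24, adjusted p = 0.423), and one of -0.81 before centring. The 0.33 lay within the quartiles of the height bin of Mcm2, -0.10 to 0.47. For Mcm4, Mcm6 and Mcm2 the genotypes overlapped after quantile normalization.

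The remaining helicase subunits overlapped between genotypes in relative height. Of these, Mcm5 showed the widest spread within a genotype, at 9.74 and 25.7 in Smc3-het, against 44.1, 47.8 and 54.9 in Smc3-wt, with a difference of -0.49 (adjusted p = 0.338). In Smc3-het replicate 2 it was at 0.64 relative to the library median, as high as in Smc3-wt, and in Smc3-het replicate 1 it was at -0.43. Mcm3 and Mcm7 differed by -0.30 and -0.08.

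Origin licensing needs Cdc6, Cdt1 and the origin recognition complex, which together load the MCM ring. Cdc6 stood at 10.3 and 15.1 in Smc3-het and at 17.9, 21.8 and 24.1 in Smc3-wt. Its relative height was on the higher side in Smc3-het without overlap. The difference was 0.37 (SE 0.23, limma adjusted p = 0.337), within the quartiles of its height bin, -0.18 to 0.39. That difference became -0.76 before centring and -0.31 on MACS2's local background, and the genotypes overlapped after quantile normalization. Cdt1 differed by 0.16 and overlapped. Orc1, the largest subunit of the origin recognition complex, had no gene-end peak in any library. The promoter table places its start site 3749 bp inside the annotated span, and there the height was 17.3 and 20.9 in Smc3-het, against 24.1, 40.0 and 37.4 in Smc3-wt. With start sites in place of gene ends, Orc1 overlapped between genotypes, with a difference of 0.34 (adjusted p = 0.428), so this promoter was open in every library, inside the annotated span.

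The enzymes of DNA synthesis split into high and low promoters. Pcna, the sliding clamp that Rfc3's complex loads, stood at 30.1 and 40.4 in Smc3-het and at 66.7, 55.6 and 83.6 in Smc3-wt. It lay in the highest bin of genes by mean relative height, and its difference was 0.18 (SE 0.23, adjusted p = 0.666). Its end is shared with Cds2, 158 bp away. Rrm2, the regulated subunit of ribonucleotide reductase, stood at 24.8 and 34.6 in Smc3-het and at 55.04, 43.6 and 56.5 in Smc3-wt, with a difference of 0.32 (adjusted p = 0.430). Rrm1, its partner subunit, was lower, at 12.5 and 9.24 in Smc3-het, against 23.3, 23.4 and 27.1 in Smc3-wt, and differed by -0.06. After quantile normalization Pcna and Rrm2 were higher in Smc3-het without overlap, by 0.46 and 0.55. Pola1, the catalytic subunit of the primase-associated polymerase and the X-linked gene of the list, differed by 0.13 and overlapped. Of 4 Y-linked genes, Kdm5d, Eif2s3y, Uty and Ddx3y, none had a gene-end peak in either Smc3-het library or in Smc3-wt replicate 2, while all 4 had one in Smc3-wt replicates 1 and 3, and the part of sex in these results was not tested. In all, 13 of 14 replication genes were tested, 7 with lower and 6 with higher relative height in Smc3-het, and their median difference was -0.06.

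Of the 8 cyclins and kinases of G1 and S phase, 6 were open at a gene end in every library. Ccne1, which encodes cyclin E1, the partner of CDK2 at S phase entry, stood at 13.1 and 24.3 in Smc3-het and at 44.8, 49.8 and 62.8 in Smc3-wt. The genotypes did not overlap in relative height, and the difference was -0.41 (SE 0.24, adjusted p = 0.328), within the quartiles of its height bin. That value was not stable, at -0.14 without Smc3-het replicate 1, -0.70 without Smc3-het replicate 2 and -0.04 on MACS2's local background, and the genotypes overlapped after quantile normalization. Ccne2, for cyclin E2, had the highest mean height of this role, at 19.2 and 25.7 in Smc3-het, against 41.5, 40.0 and 78.4 in Smc3-wt, although Cdk2 in Smc3-wt replicate 1 and Ccne1 in Smc3-wt replicate 2 were higher. Its difference was -0.06 (adjusted p = 0.910), and after quantile normalization it was 0.10. Ccne1 and Ccne2 thus stood at like heights, and neither passed the test.

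Cdk6, a partner of the D cyclins and a kinase prominent in blood progenitors, stood at 7.24 and 9.92 in Smc3-het and at 21.5, 22.8 and 46.9 in Smc3-wt at its annotated ends. Relative height was lower in Smc3-het without overlap, with a difference of -0.61 (SE 0.27, adjusted p = 0.198), which was -0.39 without Smc3-wt replicate 3 and -0.15 on MACS2's local background. The start site in the promoter table lies 2889 bp inside the annotated end, where the height was 13.4 and 20.2 in Smc3-het, against 45.2, 50.4 and 46.9 in Smc3-wt. The gene-end value of 46.9 in Smc3-wt replicate 3 came from a peak 2932 bp wide, with its summit 408 bp past that start site. In the other libraries the strongest gene-end summit lay before that start site, in a lower peak. The difference of -0.61 therefore did not compare the same peak in all libraries. At that start site the genotypes overlapped in relative height, with a difference of -0.39 (adjusted p = 0.342). Cdk4, the sister kinase, differed by 0.07. Cdk2 stood at 11.4 and 16.1 in Smc3-het and at 79.8, 26.0 and 57.9 in Smc3-wt, with a difference of -0.73 (adjusted p = 0.275). The 79.8 of Smc3-wt replicate 1 came from the summit by Rab5b, and at the Cdk2 start site that library had 34.6 and the difference was -0.32, a smaller value by over 1.5 times.

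Of the 3 D cyclins, which couple growth factor signals to CDK4 and CDK6, Ccnd2 had gene-end peaks in all 5 libraries, at 11.7 and 8.55 in Smc3-het, against 17.1, 19.2 and 18.8 in Smc3-wt. It had the lowest mean height of this role, although Cdk6 was lower in Smc3-het replicate 1, and its difference of 0.26 (adjusted p = 0.592) was -0.88 before centring and -0.37 over the whole gene body. Ccnd3 had a gene-end peak in Smc3-wt replicate 1 alone, with a height of 9.11. At its second start site, 88416 bp inside the annotated span, Ccnd3 was open in every library, at 19.8 and 19.5 in Smc3-het, against 33.5, 28.0 and 40.0 in Smc3-wt, and was on the higher side in Smc3-het by 0.37 without overlap (adjusted p = 0.358). Ccnd1 had no gene-end peak in any library, and its highest peak within the gene was 8.21 in Smc3-het replicate 2, with none in Smc3-het replicate 1, against 6.196, 15.1 and 20.2 in Smc3-wt. Among the D cyclins, therefore, Ccnd2 was open at a gene end and Ccnd3 at a start site in every library, and Ccnd1 had no peak at its ends. In all, 6 of these 8 genes were tested, 4 with lower and 2 with higher relative height in Smc3-het, with a median difference of -0.23.

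Of the 5 genes of the E2F and RB family, 4 were open at a gene end in every library. E2f3, an activating E2F, was the highest of the family in every library, at 28.4 and 51.7 in Smc3-het, against 63.8, 76.8 and 83.0 in Smc3-wt. In relative height it overlapped, with a difference of 0.18 (SE 0.25, adjusted p = 0.681). After quantile normalization it was higher in Smc3-het without overlap, by 0.50, and before centring the difference was -0.95. Rbl1, which encodes the RB relative p107, had the lowest mean height of the 4, at 13.1 and 12.7 in Smc3-het, against 18.2, 25.4 and 21.8 in Smc3-wt, and was the lowest in each Smc3-wt library, while Rb1 was lower in Smc3-het replicate 1. Its difference was 0.39 (adjusted p = 0.378) and became -0.75 before centring. E2f1, the best known activator, had uneven values within each genotype, at 19.2 and 12.7 in Smc3-het, against 27.3, 48.8 and 41.3 in Smc3-wt, with a difference of -0.15. Rb1, the gene of the retinoblastoma protein, differed by -0.13. E2f2 had a gene-end peak in Smc3-het replicate 2 at 5.82 and in Smc3-wt replicate 1 at 10.2 and in no other library. Over its whole gene body, E2f2 reached 12.2 and 11.98 in Smc3-het, against 11.7, 16.6 and 27.1 in Smc3-wt. The 4 tested genes had a median difference of 0.03, with 2 on each side. No gene was free of overlap, while of all genes tested 22.5% were lower and 19.0% higher without overlap.

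The mitosis genes were all open, 11 of 11 in every library. At the centre of the list are cyclin B and its kinase, whose complex drives entry into mitosis. Ccnb1, for cyclin B1, stood at 6.96 and 15.4 in Smc3-het and at 35.0, 36.9 and 42.0 in Smc3-wt. The Smc3-wt libraries lay close together while the Smc3-het libraries differed more than 2-fold, and the genotypes did not overlap. Its relative difference was -0.74 (SE 0.27, adjusted p = 0.147), the second lowest of the 34 genes. It was -0.34 without Smc3-het replicate 1, -1.15 without Smc3-het replicate 2 and -0.33 on MACS2's local background. Cdk1 stood at 14.5 and 20.9 in Smc3-het and at 58.7, 47.8 and 52.9 in Smc3-wt, lower in relative height without overlap, with a difference of -0.47 (SE 0.25, adjusted p = 0.272), although on MACS2's local background it was 0.07. Ccnb2, for cyclin B2, had the lowest mean height of the mitosis genes, at 10.6 and 7.87 in Smc3-het, against 17.9, 14.02 and 14.9 in Smc3-wt, although others were lower in a single library of each genotype, such as Bub1b in Smc3-het replicate 1 and Aurkb in Smc3-wt replicate 1. It overlapped, with a difference of 0.37 (adjusted p = 0.458) that was -0.76 before centring, -0.12 on MACS2's local background and -0.02 without Smc3-het replicate 1. Ccnb1 and Ccnb2 thus lay on opposite sides of 0, and the difference between these genes was not tested. Ccnb2 lay in a bin of weak gene ends, whose median difference was 0.27, and within the quartiles of that bin, -0.02 to 0.54.

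Ccna2, for cyclin A2, which acts in S phase and mitosis, was high in every library, at 24.2 and 37.3 in Smc3-het, against 80.9, 65.4 and 85.3 in Smc3-wt, with an end shared with Bbs7. It differed by -0.22.

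The Aurora kinases, too, lay on opposite sides of 0 in relative height. Aurka, which matures centrosomes and the spindle, had the highest mean height of the mitosis genes, at 24.8 and 30.1 in Smc3-het, against 80.5, 88.3 and 107 in Smc3-wt, and Ccna2 was above it in Smc3-het replicate 2 and Smc3-wt replicate 1. Its replicates were tight within each genotype, with relative heights of 0.92 and 0.87 in Smc3-het and of 1.49, 1.55 and 1.47 in Smc3-wt. The difference was -0.61 (SE 0.22, adjusted p = 0.143), and it lay within the quartiles of the highest bin of genes. It was -0.33 after quantile normalization and -0.10 on MACS2's local background. The end is shared with Cstf1, 241 bp away. Aurkb, the kinase of the chromosomal passenger complex, stood at 10.02 and 11.3 in Smc3-het and at 9.11, 17.7 and 21.2 in Smc3-wt. It had the highest difference of the 34 genes, 0.63 (SE 0.29, adjusted p = 0.212), with no overlap in relative height, but the difference was 0.35 without Smc3-wt replicate 1, -0.50 before centring and -0.15 on MACS2's local background. The median difference of all genes was -0.42 in the height bin of Aurka and 0.27 in that of Aurkb, so each gene had the sign of its bin. Neither Aurora gene passed the test, and the difference between them was not tested.

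Bub1 and Bub1b encode kinase-related proteins of the spindle checkpoint. Bub1 stood at 7.52 and 13.3 in Smc3-het and at 31.3, 30.1 and 34.4 in Smc3-wt, lower in relative height without overlap, with a difference of -0.54 (SE 0.24, adjusted p = 0.217). That value was -0.30 without Smc3-het replicate 1 and -0.13 on MACS2's local background. Bub1b stood at 6.68 and 11.98 in Smc3-het and at 20.8, 18.7 and 24.8 in Smc3-wt, and overlapped, with a difference of -0.12. Plk1, the Polo kinase, differed by -0.18, Top2a, the topoisomerase that untangles sister chromatids, by 0.02, and Mki67, the source of the Ki-67 proliferation antigen, by 0.32. Mki67 was among the weak gene ends, at 8.91 and 13.7 in Smc3-het, against 15.3, 23.4 and 20.5 in Smc3-wt. Of the 11 mitosis genes, 7 had lower and 4 higher relative height in Smc3-het, with a median difference of -0.18, and 4 lower and 1 higher were free of overlap, against 22.5% and 19.0% of all genes tested.

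**Figure D4:**
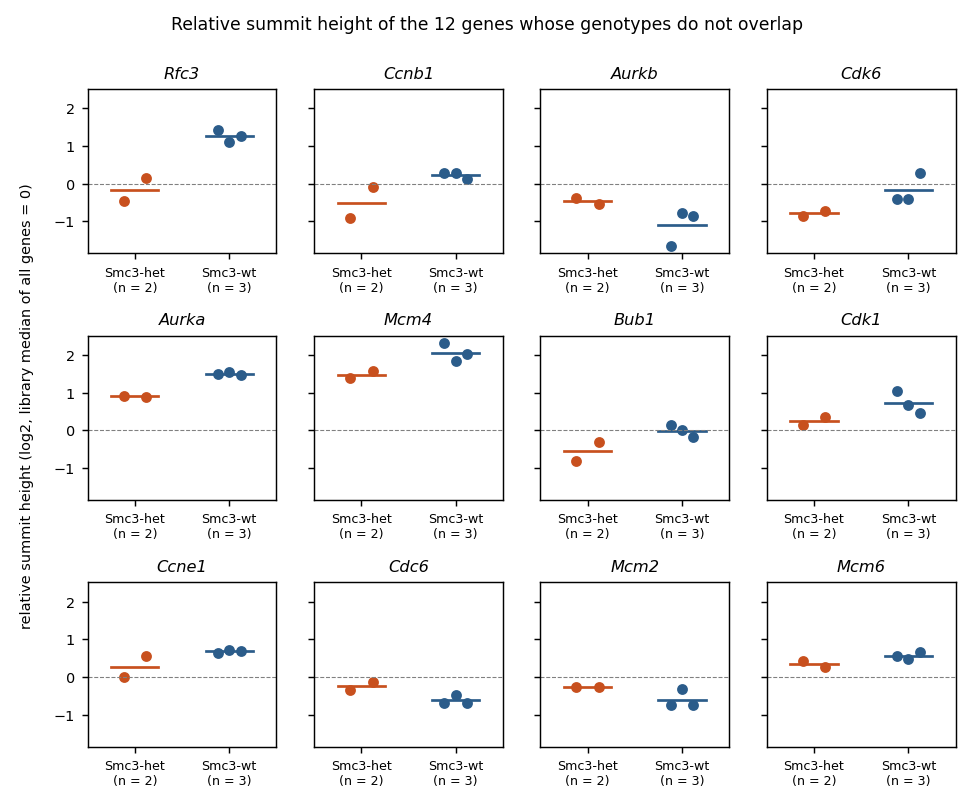
Relative height (log2, with 0 the median of all genes tested in that library) of the 12 genes whose genotypes do not overlap, with 1 point per library and a line at the group mean, Smc3-het left and Smc3-wt right. Rfc3 has the widest gap, at -0.47 and 0.14 in Smc3-het, against 1.42, 1.11 and 1.26 in Smc3-wt. Aurkb, Cdc6 and Mcm2 are on the higher side in Smc3-het here and have a lower mean in Smc3-het before centring.

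Gene ends shared with a neighbour were higher than the others. Another protein-coding gene ended within 1 kb of the strongest summit's end for 5 genes, Mcm4, Mcm7, Pcna, Ccna2 and Aurka. Their median of mean height was 52.7, against 22.1 for the other 29. Over all genes tested the medians were 26.4 for 2735 genes with a shared end and 22.2 for 6929 without.

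The wider pathway was read from 3 further lists. Of 36 other replication genes 30 were tested, of which none passed, 5 had an unadjusted p under 0.05, against 22.9% of all genes tested, and 17 had lower and 13 higher relative height in Smc3-het. None of the 4 genes with the largest differences reached the threshold. They were Gins1 (-0.65), of the helicase cofactor GINS, Orc3 (-0.60), an origin recognition subunit, Rpa2 (0.56), of the single-strand binding protein, and Pola2 (0.63), the accessory subunit beside Pola1. The median difference was -0.17, and with limma's trend and robust options, which called 7.07% of all genes tested, none of the 30 passed either.

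Of 28 other mitosis genes all were tested, none passed, 11 had an unadjusted p under 0.05, against 22.9% of all genes tested, and 15 had lower and 13 higher relative height. The lowest difference was that of Ttk, the checkpoint kinase also called Mps1, with heights of 13.4 and 19.2 in Smc3-het, against 63.8, 78.9 and 82.7 in Smc3-wt. Its log2 difference was -1.09 (SE 0.23, adjusted p = 0.0606), and the genotypes did not overlap. Mad2l1, another checkpoint gene, followed at -0.69. Highest were Birc5, for the passenger protein survivin, at 0.90, and Ccnf, for cyclin F, at 0.75. With the trend and robust options 3 of the 28 passed, all lower, against 7.07% of all genes tested. Most genes called with these options were lower, 523 of 683, against 160 higher. Among the 3 mitosis genes were Ttk (limma adjusted p = 0.00317) and Mad2l1 (limma adjusted p = 0.0454).

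Of 19 other genes of the E2F, RB and MuvB group 17 were tested, none passed and 3 had an unadjusted p under 0.05, again against 22.9% of all genes tested. The lower ones were led by E2f7, a repressor E2F, with a difference of -0.92 (adjusted p = 0.128), and E2f5, another repressor, with -0.75. E2f7 stood at 10.6 and 30.1 in Smc3-het and at 68.5, 65.9 and 89.3 in Smc3-wt. Cks1b, which encodes a small CDK-binding protein, had the highest difference, 0.85 (adjusted p = 0.0904), at 23.9 and 25.7 in Smc3-het, against 28.1, 27.5 and 35.4 in Smc3-wt. Tfdp1, the dimer partner of E2F, followed at 0.41. With the trend and robust options E2f7 (adjusted p = 0.0240), E2f5 (adjusted p = 0.0334) and Cks1b (adjusted p = 0.0268) passed, 3 of 17 against 7.07% of all genes tested. Over the group 11 had lower and 6 higher relative height in Smc3-het. Each of the 3 lists, like the 38 genes, lay on both sides of 0. Centring sets this for genes in general, since 50.2% of all genes tested were lower in Smc3-het.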

How the data were processed

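Per the submitters' processing notes, the authors used Bowtie2 and MACS2 with mm10. Versions, and how duplicates were handled, are not given in sources used here. The names of the deposited peaks carry tags for paired-end calling and for removal of mitochondrial reads, and each library has its own list. The deposited lists give, for each peak, its position, the signal at the summit as a fragment pileup and, per the file headers, the fold enrichment, a ratio to local background. A further 2 deposited columns lost their headers and are, by order and values, −log10 p and −log10 q. Pileup and fold belong to each peak as the authors called it.

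Background was solved from pileup and fold with MACS2's added 1, and its commonest value in a list served as that library's background; the number of mapped fragments was not used here, so depth is described by this background and precision cannot be given as counting intervals. Gene ends came from the RefSeq gene table (GRCm38.p6, the same build as mm10), which gives no strand; start sites and strand came from the RefSeq promoter table. Peaks on chromosomes 1 to 19, X and Y that overlapped 1 kb around a gene end were used, with no pseudocount, since each peak has a pileup above 0. Relative heights were tested with limma 3.58.1 in R 4.3.3 (plain empirical Bayes, groups from the sample titles, Smc3-het minus Smc3-wt, no covariates). The scripts were tested on simulated data.

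The genes, the further lists and the tests were chosen with earlier results of these data known. Values are given for genes past the threshold, genes without overlap, the highest and lowest of each role and genes lacking a peak; others were added from the list after their values were seen. Alternatives covered window, peak filters, background, scaling, the limma options, a replicate block and leaving out each library; start sites in place of gene ends, and quantile normalization together with the limma trend and robust options, were chosen after seeing the data. Titles restart replicate numbers in each genotype whereas library names run on, so the labels do not say that the numbers pair the libraries. Same-numbered libraries deviated with correlations of -0.09 and -0.05 over all genes tested. With 2 Smc3-het libraries the deviations of one mirror those of the other, so these correlations cannot decide on pairing.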

Additional observations from a re-analysis of the deposited data

How the results depend on the processing

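The count of 31 genes changed among all genes tested (20 higher, 11 lower in Smc3-het) moved with most settings. It was 121 with peaks of −log10 q of at least 10 (75 higher, 46 lower), 23 with lists of equal size (8 higher, 15 lower), 71 with a window of 2.5 kb (56 higher, 15 lower), 20 over the whole gene body (16 higher, 4 lower), 2 at the end with the start site, 2 at promoter table start sites, 683 with limma's trend and robust options (160 higher, 523 lower) and 70 when these were joined with quantile normalization (31 higher, 39 lower). The limma count was 0 on MACS2's local background, 0 after quantile normalization and 0 with summits required inside the window, where 782, 1690 and 2061 genes had an unadjusted p under 0.05. With no centring it was 7831, of which 7829 were lower. With the replicate number as a block, although the labels do not say that it pairs the libraries, it was 199. Leaving out 1 library gave 0 to 73, with 73 without Smc3-wt replicate 2 and 0 without each of the others, where 958 to 2606 genes had an unadjusted p under 0.05. Of the 34 cell cycle genes, the 1 called became 0 at the end with the start site, on local background and after quantile normalization. It also became 0 at promoter table start sites, with summits inside the window and over the whole gene body. In that order, 5 of 28, 2 of 34, 5 of 34, 3 of 30, 5 of 31 and 5 of 37 cell cycle genes tested had an unadjusted limma p under 0.05. The number called was 33 with no centring and 0 to 1 with 1 Smc3-wt library left out. The replicate block kept the call of Rfc3 (limma adjusted p = 0.00529). The 12 genes without overlap became 7 of 23 tested at −log10 q of at least 10. These were 5 lower and 2 higher, against 22.1% and 21.5% of all genes tested. On local background the count was 9 (4 lower, 5 higher, against 9.64% and 15.4%). It was 33 with no centring, all lower, against 87.3% of all genes tested, and 13 to 23 with 1 library left out. The highest of these, without Smc3-het replicate 2, was 15 lower and 8 higher, where all genes' shares were also up, at 34.4% lower and 37.0% higher. The median difference of -0.10 was -0.0064 on local background, -1.23 with no centring and between -0.15 and -0.05 with 1 library left out. Directions turned for Ccne2 (0.010 at −log10 q of at least 10, 0.22 on local background, 0.10 after quantile normalization with either limma fit, 0.13 with the replicate block, and from -0.19 to 0.12 with 1 library left out, the highest without Smc3-wt replicate 3), Aurkb (-0.15 on local background, -0.50 with no centring), Mcm4 (0.17) and Cdk1 (0.069) on local background, Cdc6 (-0.31 on local background, -0.76 with no centring), Ccnb2 (-0.12 on local background, -0.76 with no centring, and from -0.019 without Smc3-het replicate 1 to 0.74 with 1 library left out), Ccnd2 (-0.88 with no centring, -0.37 over the whole gene body, and from -0.14 without Smc3-het replicate 1 to 0.64 with 1 library left out), E2f3 (-0.95 with no centring, and from -0.095 without Smc3-het replicate 2 to 0.44 with 1 library left out), and with no centring Mcm2 (-0.81) and Rbl1 (-0.75). No centring leaves in the shift of all genes, and the local background can rise with the peak itself. The cause of the changes between settings was not tested. Leaving out an Smc3-het library leaves 1, which is then assumed to vary like the others, and the 2 against 3 libraries limit every comparison.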
